A study of Rattus norvegicus with 20 samples.

Results

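Rat mesenchymal stromal cells (MSCs) were kept in culture on soft or stiff silicone. Of 30560 genes, 21 passed a selection for higher levels in every 3-week and 5-week library than in any 1-week library. They were selected by their own levels: a mean of at least 5 CPM (the count of a gene per 1000000 counts of its library) over the 14 libraries of 3 and 5 weeks, and a lowest later level at least 2 times the highest level among the 6 libraries of 1 week. Of the 9985 genes that passed the minimum of 5 CPM, the 21 are 0.21%. Selection on the rise fixes its direction, so its size is a description and carries no test.

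MSCs were taken from the bone marrow of female Wistar rats and grown on gelatin-coated silicone of 2 kPa (soft) or 100 kPa (stiff), with a passage every week. After a first passage the cells were enriched with magnetic beads against CD54 and CD90 to remove blood-lineage cells. The paper does not state whether the 1-week libraries were made after that step. The study compared cells that stayed on their priming surface with cells moved to the other stiffness, to ask how a memory of soft priming arises and is maintained. The 1-week (1w2, 1w100) and 3-week groups (3w2, 3w100) held 3 libraries each, and 2 libraries each were made after 5 weeks on one surface (5w2, 5w100) and after 3 weeks on one and 2 weeks on the other (3w2→2w100, 3w100→2w2). Polyadenylated RNA was sequenced in bulk, so more cells of one type and more RNA per cell cannot be told apart in any value here. The groups share the isolation and the weekly passaging, so week, passage number and time since isolation cannot be told apart. The study describes its replicates as MSCs of different rats, which the sample labels do not state, so p-values measure only the spread between these libraries. Each batch of cells came from 1 rat.

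MSCs are stromal cells that attach to a culture surface, divide and can form bone, fat and cartilage cells. Fresh bone marrow also holds blood-lineage cells, which are known to become rarer as adherent cultures are passaged. On stiff surfaces MSCs are known to turn towards contractile, matrix-producing myofibroblasts, a state that can outlast the stiff surface and is then called mechanical memory.

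Library totals were 16127907 to 24139128 counts, with 15406 to 16961 genes detected. The lowest count of any of the 21 genes in a later library was 27. At 1 week counting limits the values, since 8 of the 21 genes had under 50 counts in every library and 1 had a count of 0 in 1 library, where a count of 0 allows up to 3 counts or 0.154 CPM (counting error only). The count table gives Ensembl identifiers without gene names, and 0 of 30560 could be matched to a symbol here. Function, known roles and sequences of these genes are therefore not given, the label MSC was not checked against marker genes, and pathway lists were not analysed here. Identifiers are printed for 6 genes, chosen after their values were seen.

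The rise was large on both surfaces. From 1 to 3 weeks the ratio of group means had a median over the 21 genes of 8.11 on soft (3.74 to 40.0) and 6.88 on stiff (3.31 to 118). It was at least 5 for 18 genes on soft and 17 on stiff, and at least 10 for 9 and 7 genes. Among all 9985 genes the median was 0.946 on soft and 0.937 on stiff, and 2.70% and 2.45% reached a ratio of 2. Per gene, the mean over 1-week libraries was 0.286 to 53.4 CPM (median 2.17), and the mean over later libraries was 5.29 to 684 CPM (median 37.5).

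ENSRNOG00000058560 had the widest gap, with a lowest later level 13.7 times its highest 1-week level. At 1 week it was at 0.108, 0.241 and 1.03 CPM in 1w2 and at 0, 0.657 and 0.727 CPM in 1w100. At 3 weeks it was at 24.4, 16.7 and 14.2 CPM in 3w2 and at 42.3, 75.7 and 44.9 CPM in 3w100. Every 3w100 library was above every 3w2 library for this gene. Its 5-week levels were 27.9 and 21.4 CPM in 5w2, 51.5 and 94.0 CPM in 5w100, 24.6 and 31.6 CPM in 3w2→2w100, and 57.5 and 117 CPM in 3w100→2w2. The 4 stiff-primed libraries again stood above the 4 soft-primed ones, also where the cells had since moved to soft.

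ENSRNOG00000056219 had the next widest gap, 3.44 times. It was at 0.915, 0.842 and 3.89 CPM in 1w2 and at 1.54, 1.04 and 4.78 CPM in 1w100, with replicate 3 highest on both surfaces. At 3 weeks it was at 69.7, 35.3 and 16.4 CPM in 3w2 and at 26.3, 19.3 and 18.97 CPM in 3w100. The groups overlapped, and the mean was 40.5 ± 27.0 CPM (SD, n = 3) in 3w2 and 21.5 ± 4.16 CPM (SD, n = 3) in 3w100. After 5 weeks it ran from 20.6 CPM in a 3w2→2w100 library to 118 CPM in a 5w2 library.

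**Figure D1:**
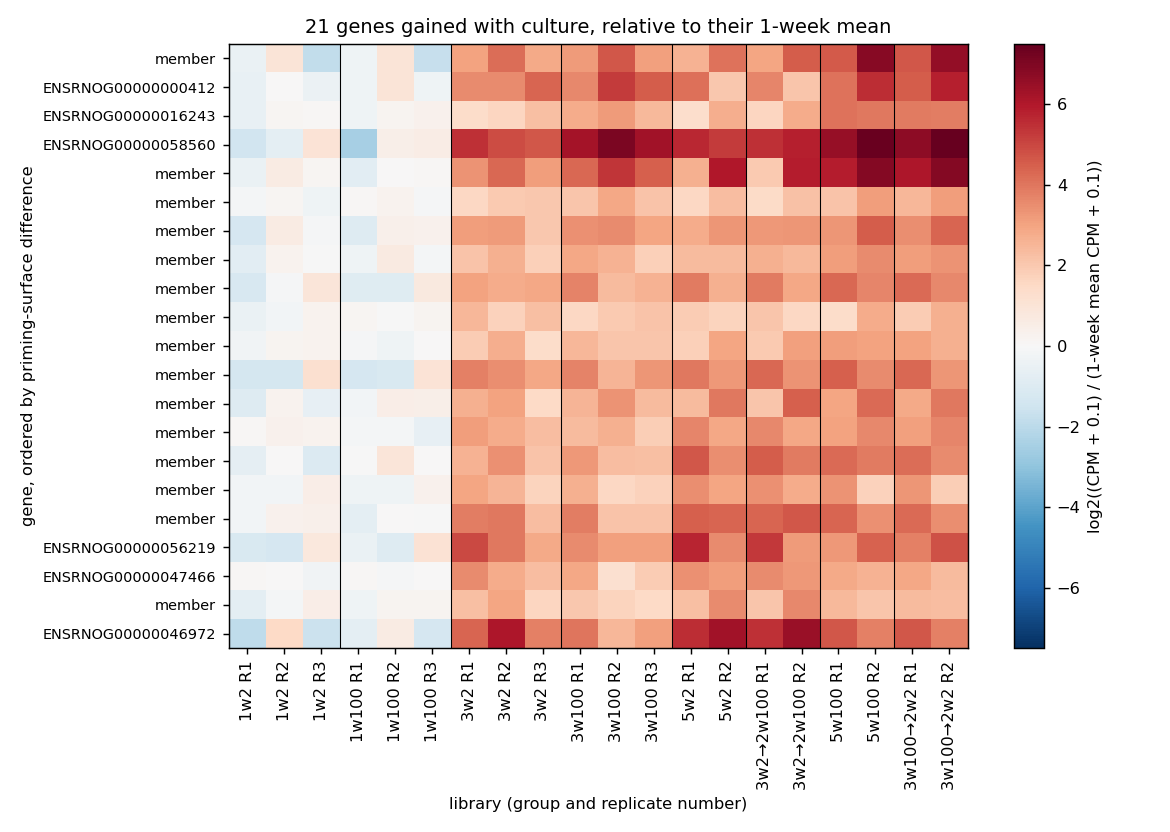
Each row is 1 of the 21 genes, ordered by the soft against stiff priming difference at 5 weeks, and each column is 1 library; colour gives log2 of (CPM + 0.1) over (1-week mean + 0.1). All 14 later columns are red in every row, which the selection fixes, while the depth of red changes between soft-primed and stiff-primed libraries in the top and bottom rows.

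Ratios ran on across the selection limit without a gap. The 3 genes just inside it had ratios of lowest later to highest 1-week level of 2.05, 2.04 and 2.00, and the 3 just outside had 1.94, 1.94 and 1.88. For the gene at 2.00, ENSRNOG00000046972, 1 library on each side set this low ratio, at 11.2 CPM in 3w100 and 5.60 CPM in 1w2. Its other later libraries were at 16.9 CPM or more and its other 1-week libraries at 2.96 CPM or less. A ratio of 1.5 gave 44 genes and a ratio of 3 gave 5.

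Counts were concentrated in few of the genes. CPM is not scaled by gene length, so this is an order of read numbers and not of transcripts. The gene with most counts was at 21.2, 21.5 and 124 CPM in 1w2, 22.0, 24.03 and 107 CPM in 1w100, 720, 587 and 405 CPM in 3w2 and 694, 310 and 537 CPM in 3w100. Here too replicate 3 was the highest at 1 week on both surfaces. The gene with the next most counts was at 3.22 to 23.1 CPM in the 1-week libraries and 82.8 to 296 CPM at 3 weeks. Together they held 40.5% to 61.1% of the summed counts of the 21 genes in later libraries.

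Summed over the 21 genes, 1w2 had 170 ± 68.0 CPM and 1w100 had 164 ± 51.6 CPM (SD, n = 3 each). The sum was 1306 ± 362 CPM in 3w2 and 1335 ± 182 CPM in 3w100 (SD, n = 3 each). No difference by surface beyond the spread of the libraries was seen at either time. At 5 weeks it was 1690 ± 55.0 CPM in 5w2, 1900 ± 58.3 CPM in 3w2→2w100, 2929 ± 422 CPM in 5w100 and 2657 ± 270 CPM in 3w100→2w2 (SD, n = 2 each). The order followed the priming surface. Without the 2 genes with most counts the means were 885 ± 204, 923 ± 281, 1201 ± 75.4 and 1145 ± 34.7 CPM in the same order (SD, n = 2 each). This step was smaller, in the same direction, and the libraries overlapped. Replicate 2 of 3w2→2w100 was at 1122 CPM and replicate 1 of 3w100→2w2 at 1121 CPM.

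The median log2 rise weighs every gene alike. Relative to the mean over all 1-week libraries it was -0.16 ± 0.53 in 1w2 and -0.01 ± 0.29 in 1w100 (SD, n = 3 each). It was 2.84 ± 0.41 in 3w2 and 2.76 ± 0.40 in 3w100 (SD, n = 3 each). After 5 weeks it was 3.34 ± 0.13 in 5w2, 3.40 ± 0.18 in 3w2→2w100, 3.68 ± 0.10 in 5w100 and 3.78 ± 0.08 in 3w100→2w2 (SD, n = 2 each). All 8 libraries of 5 weeks (3.24 to 3.83) were above all 6 of 3 weeks (2.36 to 3.20).

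**Figure D2:**
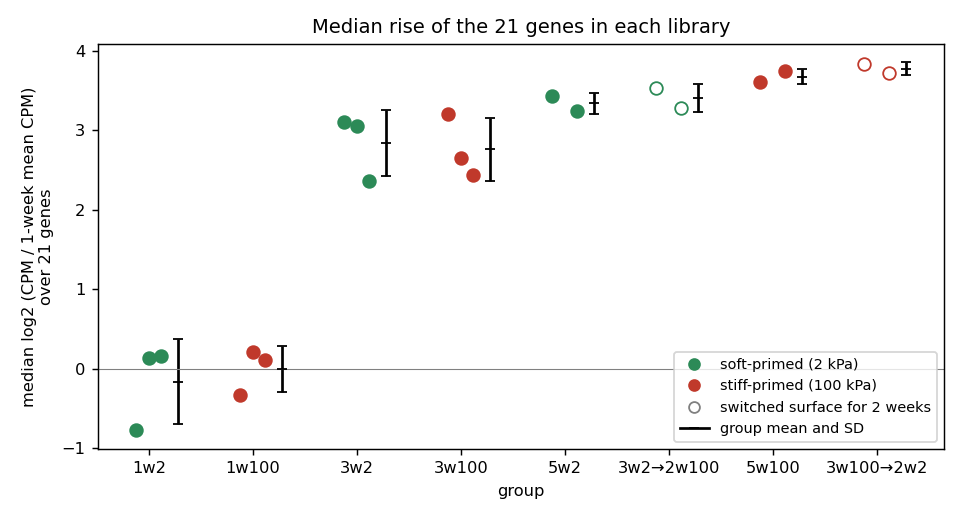
Each point is 1 library, placed by the median over the 21 genes of log2 CPM over the 1-week mean; bars give the group mean and SD, colours the priming surface and open points cultures that changed surface. The 5-week libraries lie at 3.24 to 3.83 and the 3-week libraries at 2.36 to 3.20, and at 5 weeks both stiff-primed groups lie above both soft-primed groups.

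The ratio from 1 to 3 weeks was larger on soft for 11 genes and larger on stiff for 10, and it differed by over 2 times for 5. The selection used these values and kept only genes that rose on both surfaces, so this split is a description with no test. ENSRNOG00000058560 rose 40.0 times on soft and 118 times on stiff.

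At 1 week, before the rise, 0 of the 21 genes were called between 1w2 and 1w100 by edgeR (0% of all genes, 54 genes and 0 members at an unadjusted p under 0.05) and 0 by DESeq2. The selection set an upper limit on the 1-week levels of both surfaces, so a gene already raised on one surface could be left out. Fitted log2 differences ran from -0.95 to 0.57. For 1 member the levels did not overlap, higher in 1w2, and 3.76% of all tested genes did not overlap. A separation by surface at the start was not detected by these tests, nor by edgeR with the replicate block (0 members). The first 2 fits did not pair libraries of the same number. Across surfaces those were 0.228 to 0.288 apart (median log2 size over the 21 genes, 0.5 CPM added). Replicates of one 1-week group were 0.348 to 0.544 apart. A fit within the 1-week pairs alone was not run, so small differences within pairs were not tested.

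From 3 to 5 weeks the group means of most of the 21 genes were higher at the later time, while 0 genes passed the test of this step on either surface. On soft the ratio of group means had a median of 1.34 (0.749 to 2.75) and was above 1 for 19 of the 21 genes. On stiff it had a median of 1.77 (1.24 to 4.87) and was above 1 for 21 of 21. Among all 9985 genes 46.8% on soft and 42.4% on stiff were above 1. The ratio reached 2 for 2 genes on soft and 5 on stiff, against 0.240% and 0.561% of all genes. Replicate 3 has no 5-week library and was the lowest 3-week library on both surfaces by the median rise. With replicates 1 and 2 alone, chosen with the values known, the median ratio was 1.28 on soft (0.778 to 2.37) and 1.66 on stiff (1.15 to 4.06). It was then above 1 for 16 genes on soft and 21 on stiff, beside 48.7% and 44.1% of all genes.

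In edgeR 0 of the 21 were called on soft (0% of all genes, 1315 genes and 1 member at an unadjusted p under 0.05) and 0 on stiff (0% of all genes, 889 genes and 6 members), and DESeq2 called 0 of 21 on soft and 0 of the 11 to which it gave an adjusted p on stiff. The lowest adjusted p of a member was 0.413 on soft and 0.702 on stiff. The median fitted log2 change was 0.47 on soft and 0.89 on stiff, beside 0.00 and -0.01 over all genes tested. On stiff, the gene with the next most counts had the largest change, 2.30, with 290 and 1347 CPM in the 5w100 libraries after 107, 296 and 101 CPM in 3w100. Its 5w100 libraries lay far apart, and both were above the 3w100 mean of 168 CPM.

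**Figure D3:**
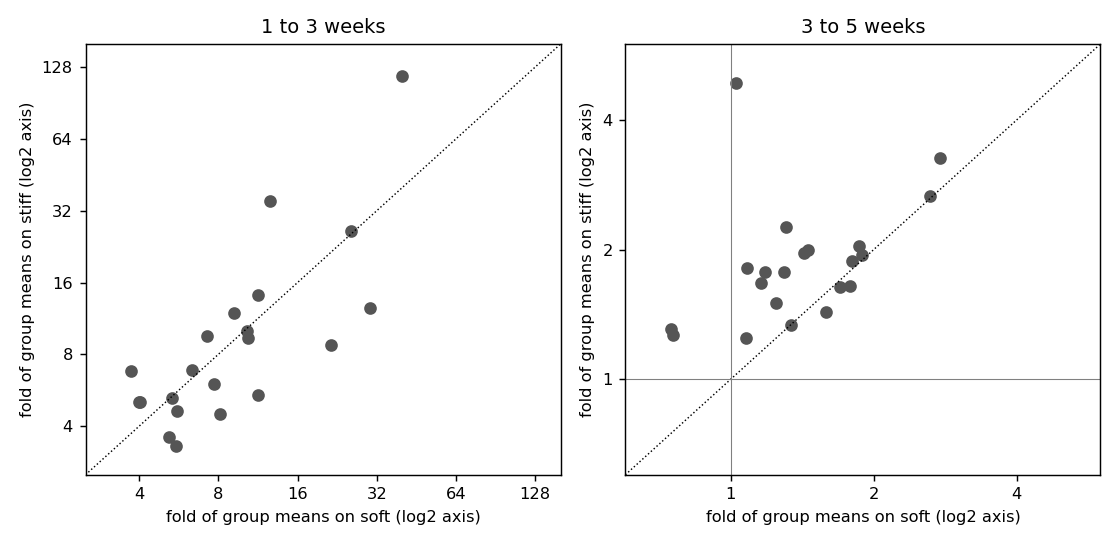
Each point is 1 of the 21 genes, placed by its ratio of group means on soft (x) and on stiff (y), from 1 to 3 weeks (left) and from 3 to 5 weeks (right), on log2 axes with the line of equal ratios dotted. On the left, points lie on both sides of the line, 11 larger on soft and 10 on stiff; on the right all 21 are above 1 on stiff and 19 on soft.

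The lowest later group mean was at 3 weeks for 18 genes, 9 in 3w2 and 9 in 3w100, as it was for 27.8% of the 9985 genes. The highest group mean was in a stiff-primed 5-week group for 14 genes (8 in 5w100, 6 in 3w100→2w2) and in a soft-primed one for 7 (5 in 3w2→2w100, 2 in 5w2). Among the 9985 genes the later group with the highest mean was a stiff-primed 5-week group for 26.3% and a soft-primed one for 35.0%. The levels in later libraries spread 2.75 to 31.1 times per gene, with a median of 5.98, beside a median of 1.56 over the 9985 genes.

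Between 3w2 and 3w100, 0 of the 21 genes were called by edgeR (0% of all genes, 863 genes and 4 members at an unadjusted p under 0.05) and 0 by DESeq2. For 4 members the levels did not overlap between the 3 libraries of either group, all higher in 3w100, and 14.5% of all tested genes did not overlap. ENSRNOG00000058560 had the lowest p of the 21, with a log2 difference of soft over stiff of -1.57 (SE 0.46, edgeR adjusted p = 0.777). ENSRNOG00000016243 was at 39.1, 45.5 and 71.3 CPM in 3w2 and at 101, 139 and 80.1 CPM in 3w100, a log2 difference of -1.06 (SE 0.37, edgeR adjusted p = 0.777). ENSRNOG00000046972 stood the other way, at 40.4, 131 and 27.5 CPM in 3w2 and 31.5, 11.2 and 16.9 CPM in 3w100, and its groups overlapped (log2 difference 1.74, edgeR adjusted p = 0.806). Without 3w2 replicate 2 the difference of that gene was 0.74.

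Between 5w2 and 5w100, with 2 libraries each, edgeR called 0 of the 21 (0.264% of all genes, 2167 genes and 4 members at an unadjusted p under 0.05), and DESeq2 called 1, ENSRNOG00000016243 (adjusted p = 0.00511). In edgeR with a replicate block, 3 members and 498 genes were called, ENSRNOG00000016243 among them (adjusted p = 0.0211). That gene was at 37.8 and 98.0 CPM in 5w2 and at 249 and 232 CPM in 5w100. Its log2 difference was -1.83 (SE 0.46, edgeR adjusted p = 0.0869). ENSRNOG00000058560 differed by -1.55 (adjusted p = 0.198) and ENSRNOG00000000412 by -1.55 (adjusted p = 0.336). ENSRNOG00000016243 moved to -1.29 without 5w2 replicate 1 and -2.68 without 5w2 replicate 2. ENSRNOG00000000412 moved to -3.04 and -0.84 without those libraries, and to -0.71 without 5w100 replicate 2.

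At 5 weeks the 4 groups separate the surface of priming (weeks 1 to 3) from the current surface (weeks 4 and 5). By priming, edgeR called 3 of the 21 genes, all higher after stiff priming, where 9.75% of all tested genes were called (437 higher after soft and 932 after stiff priming). Of the members, 8 had an unadjusted p under 0.05 and DESeq2 called 5, which include 2 of these 3 and not ENSRNOG00000058560 (DESeq2 adjusted p = 0.0562). The 3 called of 21 are a share near that of all genes. The fitted differences were wider: their median size was 0.65 on the log2 scale, beside 0.21 over all genes, with 14 members higher after stiff and 7 after soft priming. The members also lay further apart between replicates of one 5-week group, by a median log2 size that averaged 0.842 over the pairs, beside 0.207 over all genes. The greater width was not separated from that spread.

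For those 3 genes the 3w100→2w2 libraries, after 2 weeks on soft, lay near the 5w100 libraries of the same number. ENSRNOG00000016243 was at 44.7 and 101 CPM in 3w2→2w100 and at 223 and 210 CPM in 3w100→2w2, which puts all 4 stiff-primed libraries at 210 CPM or more and all 4 soft-primed at 101 CPM or less. Its log2 difference was -1.68 (SE 0.33, edgeR adjusted p = 0.00666). ENSRNOG00000058560 differed by -1.58 (SE 0.40, edgeR adjusted p = 0.0223), with no overlap. ENSRNOG00000000412 was the lowest of the 3, at 6.76 and 1.46 CPM in 5w2, 4.69 and 1.54 CPM in 3w2→2w100, 6.47 and 17.97 CPM in 5w100 and 8.86 and 22.0 CPM in 3w100→2w2. One stiff-primed library lay below one soft-primed library for this gene, and its log2 difference was -1.92 (SE 0.54, edgeR adjusted p = 0.0368).

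The gene with the next most counts had the largest priming difference of all 21, -2.28, and did not pass (edgeR adjusted p = 0.0675). Its stiff-primed libraries were at 290, 1347, 299 and 1152 CPM and its soft-primed ones at 70.9, 194, 90.9 and 273 CPM. Within either priming surface, replicate 2 was at least 2 times replicate 1. The gene with most counts had no such split by priming, at 839, 506, 1044 and 547 CPM after soft and 1193, 627, 1045 and 526 CPM after stiff priming.

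Toward soft priming, 0 genes were called. ENSRNOG00000046972 was at 92.9 and 157 CPM in 5w2 and 87.8 and 178 CPM in 3w2→2w100, against 50.5 and 26.8 CPM in 5w100 and 50.2 and 26.9 CPM in 3w100→2w2. The sides did not overlap, and the log2 difference was 1.75 (SE 0.63, edgeR adjusted p = 0.0932). ENSRNOG00000047466 was at 45.0 to 59.1 CPM after soft and 25.8 to 38.2 CPM after stiff priming, also without overlap (log2 difference 0.65, SE 0.30, edgeR adjusted p = 0.183). Both were higher in 3w2 than in 3w100 by the mean.

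**Figure D4:**
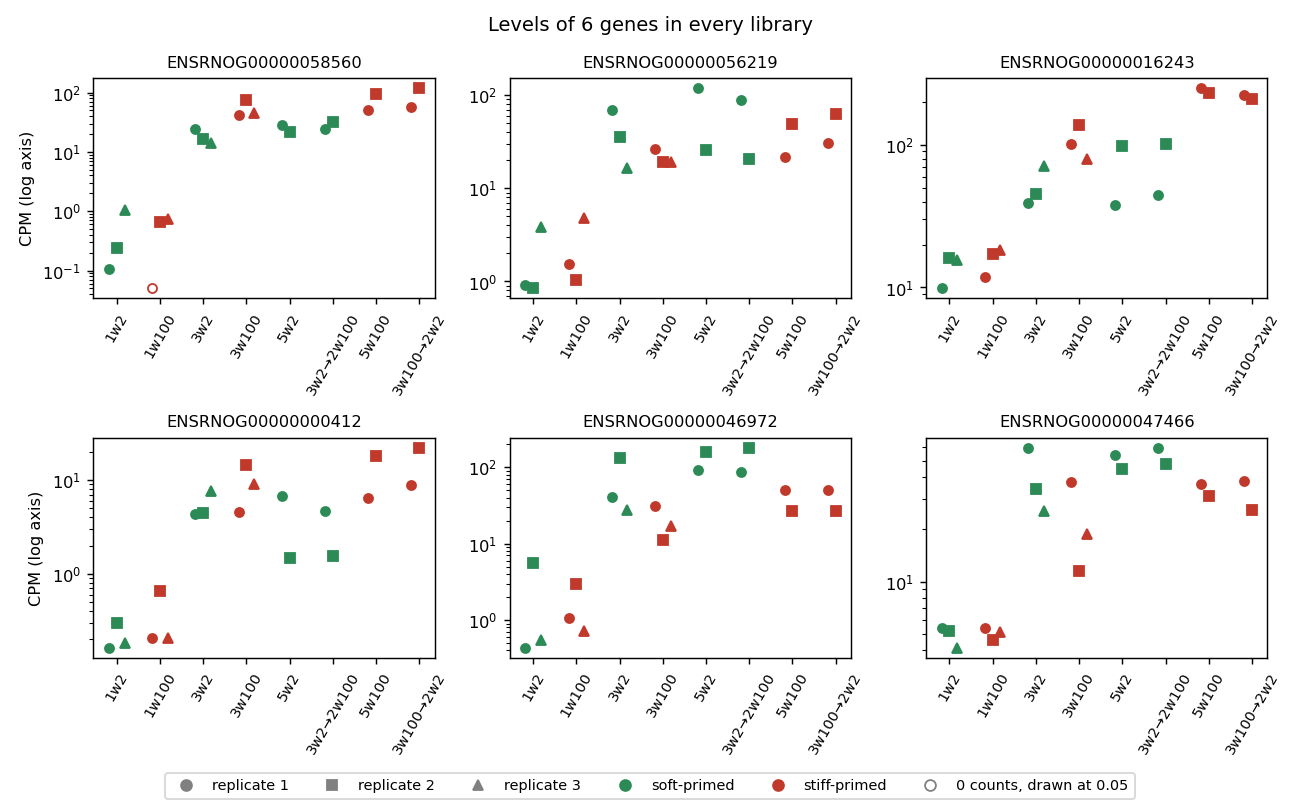
CPM (log axis) of 6 genes in each of the 20 libraries; marker shape gives the replicate number, colour the priming surface, and the open circle a count of 0 drawn at 0.05 CPM. In ENSRNOG00000058560 and ENSRNOG00000016243 the red 5-week points stand above the green ones, in ENSRNOG00000046972 and ENSRNOG00000047466 below them, and switched groups sit beside the unswitched group of the same priming.

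The priming test treats 8 libraries as separate. A switched and an unswitched library of the same number and priming surface, however, differed by a median of only 0.103 to 0.215 over the 21 genes (size of the log2 difference, 0.5 CPM added), with 0 genes over 2 times apart in any of the 4 pairs. Libraries of different number in one group differed by 0.767 to 0.932, with 6 to 10 of the 21 genes over 2 times apart. Libraries of the same number that differed in both priming and current surface (5w2 against 5w100, 3w2→2w100 against 3w100→2w2) were 0.572 to 0.967 apart. Pairs that differed in priming alone were not compared in this way. Over all genes the 3 kinds of pair gave 0.096 to 0.123, 0.147 to 0.241 and 0.168 to 0.250.

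When each pair was summed to 1 sample, which leaves 4 samples, edgeR called 0 genes for priming (1185 genes and 5 members at an unadjusted p under 0.05). The log2 differences hardly moved: -1.69 for ENSRNOG00000016243, -1.59 for ENSRNOG00000058560 and -1.89 for ENSRNOG00000000412. With the replicate number as a block, 6 members were called, ENSRNOG00000016243 and ENSRNOG00000058560 among them, and ENSRNOG00000000412 was not (adjusted p = 0.0518). Leaving out 5w100 replicate 2 or 3w100→2w2 replicate 2 left 1 member called, and leaving out replicate 1 of either group gave 5. Over 15 alternatives, ENSRNOG00000016243 was called in 13 (adjusted p 1.20e-05 to 0.512), ENSRNOG00000000412 in 8 (0.00675 to 0.629) and ENSRNOG00000058560 in 7 (0.0119 to 0.489).

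Replicate number and priming surface each separated some of the genes at 5 weeks. For 7 of the 21, the 4 soft-primed and 4 stiff-primed libraries did not overlap (5 higher after stiff, 2 after soft priming), where 19.3% of all tested genes did not. For 5 others, the 4 libraries of replicate 1 did not overlap the 4 of replicate 2 (4 higher in replicate 1), where 16.3% of all tested genes did not. The gene with most counts was one of these, at 839 to 1193 CPM in replicate 1 and 506 to 627 CPM in replicate 2. The remaining 9 overlapped by both.

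By current surface, in the fit without pairs, edgeR called 0 members (0% of all genes, 114 genes and 0 members at an unadjusted p under 0.05) and DESeq2 called 0 members. The log2 differences ran from -0.32 to 0.38, with a median size of 0.12 beside 0.08 over all genes. By current surface 0 of the 21 exceeded 0.5, beside 5.39% of all genes, and by priming 14 did, beside 23.3% of all genes.

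A finer comparison, added after the values were seen, set each switched library against its unswitched partner. With the 4 pairs as blocks, edgeR called 1 of the 21, ENSRNOG00000056219, where 0.145% of 13112 genes were called. At an unadjusted p under 0.05 there were 9 members and 1047 genes. It was higher on the current soft surface in 4 of 4 pairs: 118 against 89.9 CPM and 26.0 against 20.6 CPM after soft priming, and 30.8 against 21.7 CPM and 63.1 against 49.4 CPM after stiff priming. The log2 difference was 0.37 (edgeR adjusted p = 0.0104). Without one or the other stiff-primed pair it was 0.36 and 0.38 and not called (adjusted p = 0.101 and 0.158), and without one or the other soft-primed pair it was 0.37 and 0.39 and called (adjusted p = 0.0273 and 0.000336). Without the soft-primed pair of replicate 2, edgeR called 4 members and 364 genes. The same gene differed by 0.65 by priming (SE 0.62, edgeR adjusted p = 0.540).

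**Figure D5:**
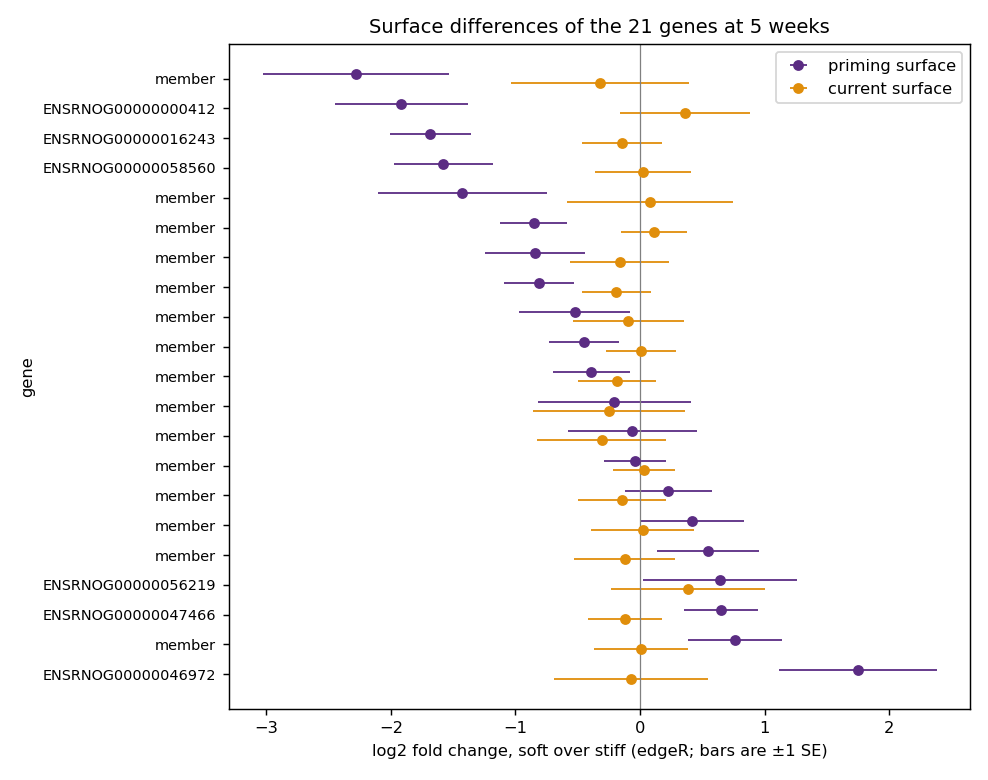
Fitted log2 differences of soft over stiff at 5 weeks for each of the 21 genes, by priming surface (purple) and current surface (orange), with bars of 1 SE on either side. Priming differences span -2.28 to 1.75 and current-surface differences -0.32 to 0.38.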

How the data were processed

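The authors trimmed reads of a stranded polyadenylated RNA library with TrimGalore!, checked them with FastQC, mapped them to mRatBN7.2 (rn7) with HISAT2, counted them with FeatureCounts on Galaxy EU and tested them with DESeq2. Neither versions nor the strand setting is given in the sources used here, which leaves counts of overlapping or near-identical genes uncertain. The deposited values are raw counts per Ensembl gene (30560 rows, 0 naming no gene).

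The genes and comparisons were chosen with earlier results of these data known. The rule for named genes needed symbols and gave none. CPM used column totals. Tests used R 4.3.3 and edgeR 4.0.16 on 14034 genes that passed filterByExpr (minimum count 10, total 15), as did all 21 genes, with TMM factors, 1 model of 8 groups over 20 libraries, and Benjamini-Hochberg adjusted p below 0.05. SE is the size of the log2 fold change over the square root of F. Groups came from the sample labels. TMM and RLE factors shifted the median of all genes by 0.0065 at most.

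Same-numbered libraries were checked for pairing by correlating deviations from group means across genes. At 1 week r was 0.626, 0.650 and 0.777, so the numbers pair those libraries across surfaces. At 5 weeks r was 0.760 and 0.802 between switched and unswitched libraries of one priming surface. Across priming surfaces it was only 0.168 to 0.245. The numbers thus pair 5-week libraries strongly within a priming surface and weakly across it. At 3 weeks r was 0.389 and 0.465 for replicates 1 and 3 but 0.0840 for replicate 2, so pairing there was uneven. Between 3 and 5 weeks on one surface r was 0.391 to 0.448, and between 1 and 3 weeks 0.0456 to 0.373. The pairing comes from the data. A test of the surface difference of the 1 to 3 week rise is not reported, because the selection used those values.

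Alternatives were DESeq2 1.42.0, RLE factors, no filter, a mean count of at least 10, the replicate block, only the groups compared, other selection limits and leaving out each library. Sums of pairs, pairs as blocks and ratios from replicates 1 and 2 were added after the values were seen. In simulated data with 200 of 14034 genes of at least 50 mean counts given a log2 change of 2, edgeR recovered 89.5% for priming and 96.5% for the current surface. Lower counts and smaller changes were not simulated. Simulated libraries were drawn independently, so the likeness of switched and unswitched libraries of one number and priming surface is not covered by these shares.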

Additional observations from a re-analysis of the deposited data

How the results depend on the processing

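The 21 genes became 25 with TMM factors, 24 with DESeq2 size factors, 29 with no minimum, 26 with a mean of at least 1 CPM, 17 with at least 10, 44 with a ratio of 1.5, 5 with a ratio of 3, and 20 to 25 without 1 library. For priming (3 called), DESeq2 called 5, the replicate block 6, only the groups compared 1, sums of pairs 0, and leaving out 1 library 1 to 5. Between 5w2 and 5w100 (0 called), DESeq2 called 1 and the replicate block 3. For the current surface (0 called), pairs as blocks called 1, and 0 to 4 without 1 pair. The replicate block changed no other call. The log2 differences of ENSRNOG00000056219 reversed for priming, to -0.085 without 5w2 replicate 1 and -0.055 without 3w2→2w100 replicate 1 (range without 1 library -0.085 to 1.00), and for the current surface to -0.35 without 5w2 replicate 1 (range -0.35 to 1.09). The cause was not tested. The comparisons at 1 week, at 3 weeks and of 5 against 3 weeks gave 0 members in every alternative run. Where a group was left with 1 library, it was assumed to vary like the others. Precision is limited by 2 libraries a group at 5 weeks and by under 50 counts in every 1-week library for 8 genes.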
